A study of Mus musculus with 4 samples.

Results

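The Cyp2c genes of a cluster on chromosome 19 are described here, 10 in number, namely Cyp2c29, Cyp2c38, Cyp2c39, Cyp2c67, Cyp2c40, Cyp2c69, Cyp2c37, Cyp2c54, Cyp2c50 and Cyp2c70. They were chosen by name as a gene family, with earlier results of these data known, and all 10 were among the 8797 genes listed for every mouse. For all 10, and for 3632 of the listed genes, a B6-allele frequency was given in every mouse. Poly(A) mRNA of the liver was sequenced from 4 female F1 hybrids, all 5 months old, between the inbred strains B6 and MSM. The cross MSM mother x B6 father and the reciprocal cross B6 mother x MSM father each gave 2 mice, labelled as biological replicates 1 and 2. Every mouse therefore inherited a B6 and an MSM set of autosomes, and no parental-strain mice, treatment or transgene entered the comparison. Whether the MSM set holds an intact copy of each of the 10 genes was not examined. MSM is derived from Mus musculus molossinus, and B6 is a standard laboratory strain, so many transcripts differ by SNPs that show which copy a read came from.

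The Cyp2c genes encode microsomal cytochrome P450 enzymes that are abundant in hepatocytes. Many of them are epoxygenases, which turn arachidonic acid into epoxyeicosatrienoic acids, lipid mediators that soluble epoxide hydrolase (Ephx2) degrades, and they take their electrons from the P450 reductase Por. Others of the family oxidize drugs, retinoids or bile acids, and several are induced through the nuclear receptors CAR (Nr1i3) and PXR (Nr1i2). Tandem duplication in rodents made the family large, so its members resemble each other closely.

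Expression is given in FPKM, a count of fragments scaled to the transcript's length and to the library's mapped fragments, as the authors deposited it. The B6-allele frequency is the number of reads assigned to the B6 allele divided by the reads assigned to either allele, so that 0.5 means equal use. The reads behind each value are not in the deposited values used here, so the depth is unknown and errors are the SD between mice. All 4 libraries listed the same genes, with summed FPKM of 529024 to 671875, and the median gene differed from its mean over mice by a factor of 0.9879 to 1.025. Of 7 hepatocyte markers 6 were listed, with summed FPKM of 12890 to 18540, against 90.65 to 133.4 for the Kupffer, endothelial and stellate marker lists. None of the 4 cholangiocyte or 4 lymphocyte markers was listed. Nor was the hepatocyte marker Alb, so a gene's absence from the list is no measure of its level. The lowest mean FPKM of a listed gene was 2.501. In whole liver, fewer cells of a type and less RNA per cell cannot be told apart.

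The 10 genes together made up 0.973% to 1.14% of the listed FPKM. Their summed FPKM was 6659 and 5253 in replicates 1 and 2 of MSM mother x B6 father, and 6042 and 6370 in replicates 1 and 2 of B6 mother x MSM father. The mean was 6081 ± 607 (SD, n = 4), and the ranges of the crosses overlapped. Levels spanned from 22.8 FPKM for Cyp2c38 to 1475 FPKM for Cyp2c29, which ranked 52nd of all listed genes. In mean FPKM the order was Cyp2c29, Cyp2c40, Cyp2c69, Cyp2c70, Cyp2c50, Cyp2c54, Cyp2c37, Cyp2c67, Cyp2c39 and Cyp2c38. Only Cyp2c29 above Cyp2c40, Cyp2c67 above Cyp2c39 and Cyp2c39 above Cyp2c38 were neighbours in this order whose ranges over the 4 mice did not overlap. Cyp2c40 and Cyp2c69 differed by 0.01 ± 0.11 on the log2 scale (SD of the differences within a mouse), with the order reversed in 2 of 4 mice. Cyp2c70 and Cyp2c50 also exchanged places in 2 of 4 mice, as did Cyp2c54 and Cyp2c37, and Cyp2c37 and Cyp2c67. Leaving out replicate 1 of MSM mother x B6 father kept 6 of the 10 ranks.

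**Figure D1:**
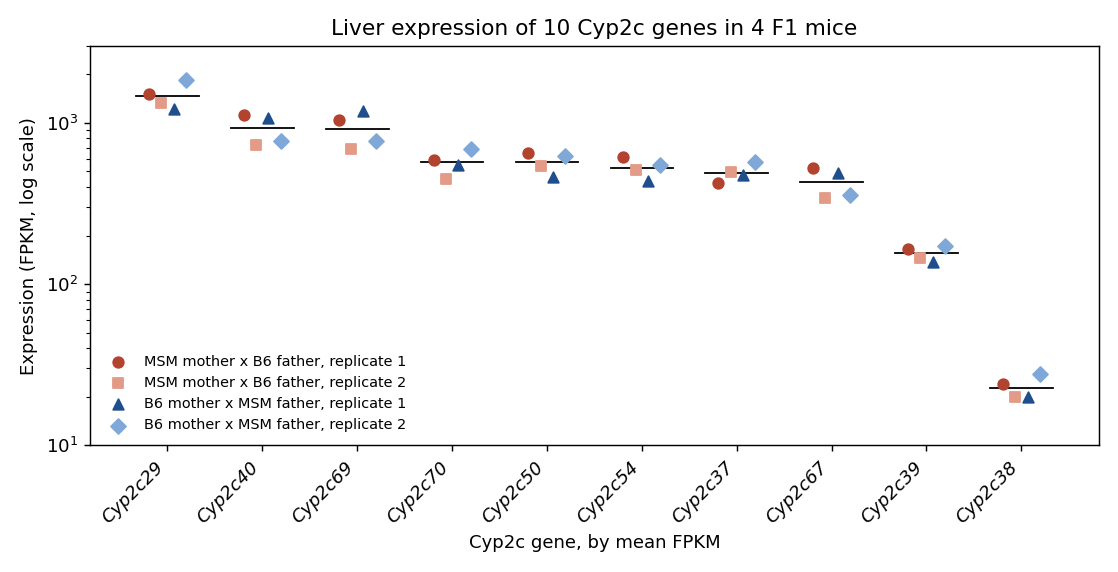
FPKM (log scale) of the 10 Cyp2c genes, ordered by mean, with 1 symbol per mouse and a bar at the mean of the 4 mice. The symbols of the crosses overlap in every gene, and Cyp2c38, at 20.0 to 27.5 FPKM, lies far below the others.

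By position and sequence the cluster falls into 4 subfamilies. Coding sequences of Cyp2c38 and Cyp2c39 were 94.2% identical, and Cyp2c29 was 89.1% and 89.5% identical to them. Cyp2c40, Cyp2c67 and Cyp2c69 were 97.7% to 97.9% identical to each other, and Cyp2c37, Cyp2c50 and Cyp2c54 were 95.1% to 96.1% identical. Cyp2c70 stood alone. Each of the 10 transcripts used has 9 exons in the GENCODE annotation.

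Because at most 1 alignment was reported per read, the share of each transcript that another Cyp2c transcript also holds bears on every value below. Windows of 150 bases, the read length, were compared among 18 Cyp2c transcripts of the B6 reference, allowing 2 mismatches. None of the windows of Cyp2c29 and Cyp2c70, and 0.1% of those of Cyp2c38 and Cyp2c39, occurred in another transcript. The share was 7.5% for Cyp2c54, 16.0% for Cyp2c50 and 16.6% for Cyp2c37. It rose to 45.9% for Cyp2c67, 52.6% for Cyp2c69 and 68.0% for Cyp2c40, whose values are therefore uncertain. For these 3 genes 13.0%, 22.5% and 29.1% of windows were identical to one elsewhere. The sequence of the MSM transcripts was not used here, and the part of misplaced reads in any frequency was not tested.

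**Figure D2:**
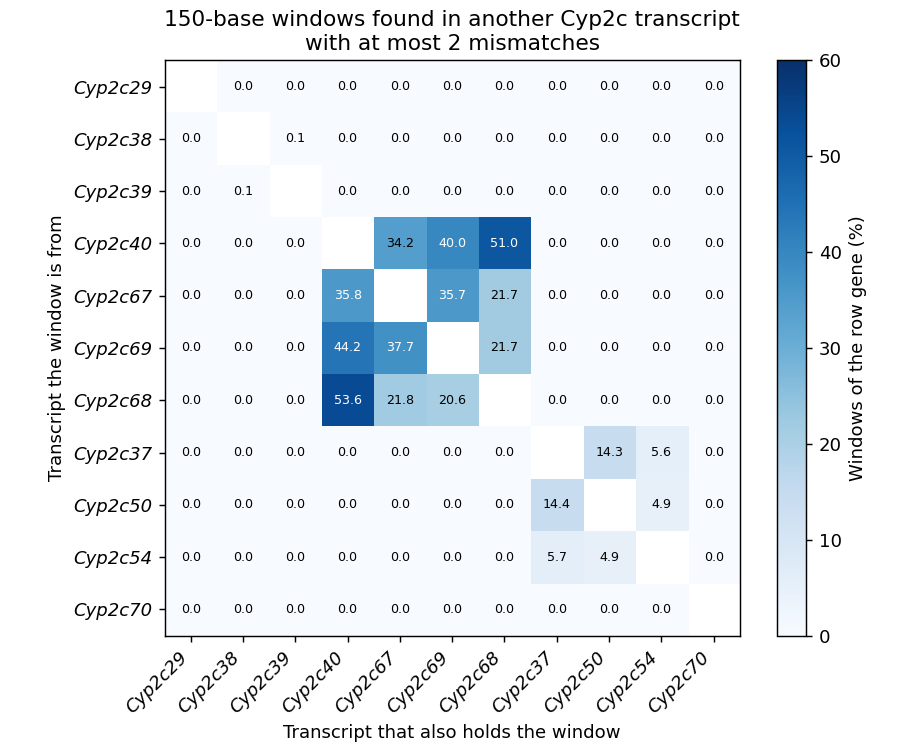
Percentage of the 150-base windows of each transcript (rows) that another transcript (columns) holds with at most 2 mismatches, for the 10 genes and their relative Cyp2c68. Sharing is high within Cyp2c40, Cyp2c67, Cyp2c69 and Cyp2c68, reaching 53.6%, lower within Cyp2c37, Cyp2c50 and Cyp2c54, and at most 0.1% elsewhere.

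Use of the alleles differed sharply from gene to gene along the cluster. Of the 10 genes, 3 (Cyp2c38, Cyp2c50 and Cyp2c70) were used more from the B6 allele and 4 (Cyp2c39, Cyp2c69, Cyp2c54 and Cyp2c29) more from the MSM allele. The calls are from limma, fitted to B6-allele log2 odds with an adjusted p threshold of 0.05. Of all 3632 genes with a frequency, 22.6% were called toward B6 and 13.6% toward MSM. Cyp2c67, Cyp2c37 and Cyp2c40 were not called. At the limits the authors used, a mean of the means of the crosses of at least 0.8 or at most 0.2, Cyp2c38 and Cyp2c50 counted as B6-biased and Cyp2c39 as MSM-biased. Those limits held 1.84% and 1.35% of the 3632 genes as counted here from the deposited frequencies. The paper reports more genes past each limit, and the reason for the difference was not tested. The median distance of the mean frequency from 0.5 was 0.147 over the 10 genes and 0.0416 over all genes. Between 0.4 and 0.6 lay 3 of the 10 genes, against 2868 of 3632 (79.0%).

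**Figure D3:**
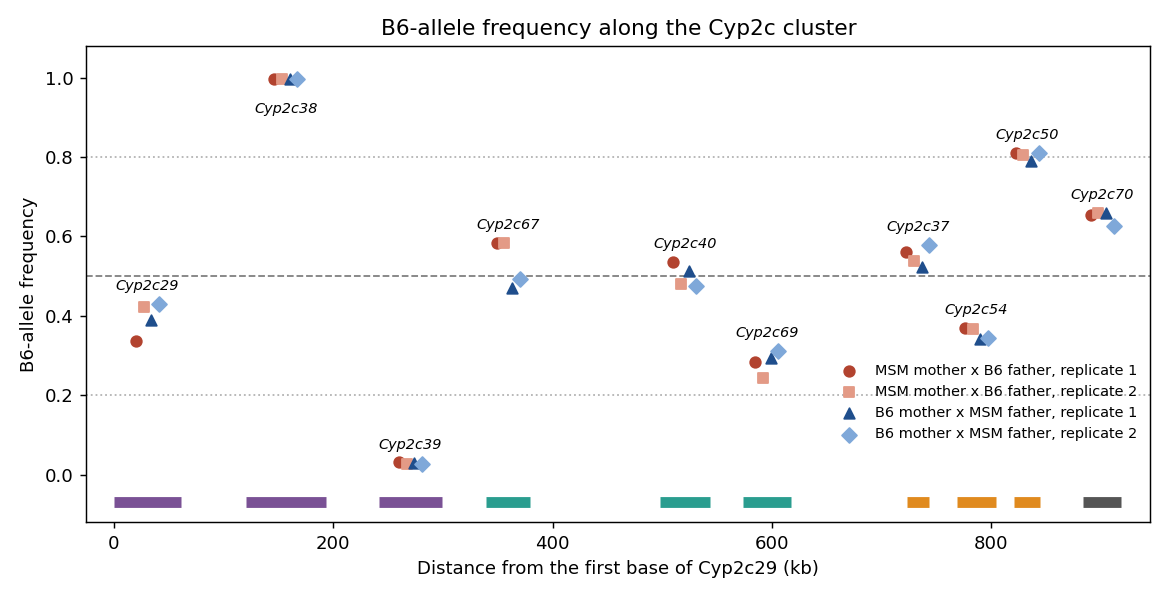
B6-allele frequency of each gene in each mouse (symbols, placed at the middle of the gene and spread sideways for clarity) by distance from the first base of Cyp2c29 in kb. Bars at the bottom show each gene's extent, coloured by subfamily, the dashed line marks 0.5 and dotted lines mark 0.8 and 0.2. Cyp2c38 lies near 1 and its neighbour Cyp2c39 near 0 in every mouse.

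The subfamily of Cyp2c29, Cyp2c38 and Cyp2c39 held both extremes. Cyp2c29, an abundant epoxygenase of mouse liver that CAR activators induce, lies at 39269405 to 39330713 on the plus strand of chromosome 19 (mm10, GENCODE M21). Its FPKM was 1510 and 1329 in replicates 1 and 2 of MSM mother x B6 father, and 1218 and 1841 in those of B6 mother x MSM father (mean 1475 ± 272.3). Its B6-allele frequencies were 0.336 and 0.424 in the first cross, and 0.388 and 0.429 in the second (mean 0.394 ± 0.0429, SD, n = 4). All 4 lay below 0.5, with log2 odds of −0.62 (SE 0.12, adjusted p = 0.036). This call was lost without any 1 of the 4 mice, with adjusted p of 0.052 to 0.16.

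Cyp2c38, another epoxygenase, lies at 39389556 to 39463075 on the minus strand. It was the gene of lowest FPKM, with 23.9 and 19.9 in replicates 1 and 2 of MSM mother x B6 father and 20.0 and 27.5 in those of the reciprocal cross. Its frequencies were 0.997 in each of the 4 mice, so that 0.0686 FPKM on average were assigned to the MSM allele against 22.8 to the B6 allele. In the test the frequency was limited to 0.99, which gave log2 odds of 6.63, the value of that limit (adjusted p = 3.2e-05). Every mouse thus had the same value of Cyp2c38 in this fit, so this p does not measure its spread between mice. With a limit of 0.001 from either end the log2 odds were 8.39 (adjusted p = 0.00038).

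Cyp2c39, an enzyme that hydroxylates retinoic acid, begins 47.8 kb further on and is transcribed away from Cyp2c38, at 39510862 to 39568529 on the plus strand. Its FPKM was 165.6 and 145.9 in replicates 1 and 2 of MSM mother x B6 father, and 137.4 and 172.4 in those of B6 mother x MSM father. The frequencies were 0.0306 and 0.0257, then 0.0299 and 0.0260, a mean of 0.0281 ± 0.00256, with log2 odds of −5.12 (SE 0.08, adjusted p = 0.00044). The MSM allele thus carried 34.6 times the FPKM of the B6 allele. Cyp2c38 exceeded Cyp2c39 in frequency by 0.969 ± 0.0022 (SD, n = 4), in 4 of 4 mice. An exact permutation test that flips the sign of each mouse's difference gave p = 0.125, the smallest that 4 mice allow.

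The bases upstream of the annotated starts of these 3 genes are shown because their allele use differs most while their transcripts are nearly free of shared windows. Each is the stretch of 250 bases before the start in RefSeq (GRCm38.p6, the assembly also called mm10), read 5′ to 3′ on the gene's strand. Cyp2c29 is at chr19:39286835-39287084 on the plus strand, Cyp2c38 at chr19:39463076-39463325 on the minus strand and Cyp2c39 at chr19:39510572-39510821 on the plus strand. The stretch of Cyp2c29 lies inside the GENCODE extent of the gene, which begins upstream of the RefSeq start, at 39269405. These are the reference, hence B6, letters. Capitals mark TGTTTAC, a core motif of FOXA factors.
Cyp2c29: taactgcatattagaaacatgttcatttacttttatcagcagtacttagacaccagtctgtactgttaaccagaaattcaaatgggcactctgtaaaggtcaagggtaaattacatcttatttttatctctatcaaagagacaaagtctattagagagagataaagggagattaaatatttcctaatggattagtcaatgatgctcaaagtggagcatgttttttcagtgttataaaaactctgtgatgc
Cyp2c38: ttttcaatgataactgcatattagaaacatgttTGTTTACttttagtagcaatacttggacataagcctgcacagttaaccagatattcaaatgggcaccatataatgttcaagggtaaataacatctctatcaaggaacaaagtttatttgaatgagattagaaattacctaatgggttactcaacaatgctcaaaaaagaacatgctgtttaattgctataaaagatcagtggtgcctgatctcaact
Cyp2c39: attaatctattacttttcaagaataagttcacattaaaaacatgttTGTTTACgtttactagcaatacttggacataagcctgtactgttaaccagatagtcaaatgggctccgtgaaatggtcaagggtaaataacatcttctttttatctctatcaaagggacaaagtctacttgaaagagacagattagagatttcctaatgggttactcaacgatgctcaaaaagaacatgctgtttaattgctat
Over the bases that aligned, the upstream stretches of Cyp2c38 and Cyp2c39 were 89.6% identical (221 bases), and that of Cyp2c29 was 82.0% and 81.9% identical to them. TGTTTAC or its reverse complement GTAAACA occurred in the stretches of Cyp2c38, 217 bases before the start, and Cyp2c39, 204 bases before it, and in none of the other 7 members with an entry. Among 32851 promoters, 3.2% held it in the same 250 bases. The motif TATAAA or its reverse complement TTTATA occurred in Cyp2c29, Cyp2c38, Cyp2c67 and Cyp2c70, and in 12.4% of all promoters. The stretch of Cyp2c39 ends within letters that continue as TATAAA in Cyp2c38. The stretches of Cyp2c40 and Cyp2c69 end before the place that matches TATAAA in Cyp2c67. Whether Cyp2c39, Cyp2c40 and Cyp2c69 hold the motif further on was not examined. CAAAG or CTTTG occurred in all 9 members with an entry and in 48.6% of all promoters. RefSeq has 2 starts for Cyp2c39, of which the one nearer to the GENCODE start was used, and Cyp2c54 had no entry. These matches describe letters only.

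Of Cyp2c37, Cyp2c50 and Cyp2c54, whose enzymes oxidize arachidonic and linoleic acid, the neighbours Cyp2c54 and Cyp2c50 leaned to opposite alleles. They are transcribed away from each other, but a link of allele use with the direction of transcription was not tested. Cyp2c54, at 40037940 to 40073827 on the minus strand, had 610.1 and 510.1 FPKM in replicates 1 and 2 of MSM mother x B6 father and 437.8 and 548.4 in those of B6 mother x MSM father. Its frequencies were 0.368 in both mice of the first cross, and 0.341 and 0.345 in the second (mean 0.356 ± 0.0144), with log2 odds of −0.86 (SE 0.04, adjusted p = 0.0040). Without replicate 1 or 2 of B6 mother x MSM father the adjusted p was 0.050 and 0.051, both just over the threshold. The gene was used more from the MSM allele in all 4 mice.

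Cyp2c50 begins 15.9 kb from the start of Cyp2c54, at 40089688 to 40113950 on the plus strand, and was used more from the B6 allele. Its FPKM was 647.9 and 541.1, then 463.8 and 619.0. The frequencies were 0.811 and 0.805 in MSM mother x B6 father, and 0.789 and 0.809 in B6 mother x MSM father. Their mean of 0.804 ± 0.0099 lay just past the limit of 0.8, which 1 mouse did not reach. The log2 odds of 2.03 (SE 0.05, adjusted p = 0.0015) stayed past the threshold without any 1 mouse. Cyp2c54 lay below Cyp2c50 by 0.448 ± 0.0114 in frequency, in 4 of 4 mice (exact permutation p = 0.125).

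Cyp2c37, at 39992424 to 40012243 on the plus strand, was near equal use. It had 425.5 and 496.2 FPKM in replicates 1 and 2 of MSM mother x B6 father, and 477.8 and 568.9 in those of B6 mother x MSM father. Its frequencies of 0.560, 0.539, 0.523 and 0.579 (in the same order of mice) were all above 0.5, with a mean of 0.550 ± 0.0247. The log2 odds were 0.29 (SE 0.08, adjusted p = 0.070), short of the threshold.

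In the subfamily of Cyp2c40, Cyp2c67 and Cyp2c69, the one with the most shared sequence, 1 gene of 3 was called. Cyp2c69, at 39842814 to 39886799 on the minus strand, had 1042 and 689.7 FPKM in replicates 1 and 2 of MSM mother x B6 father and 1177 and 775.1 in those of B6 mother x MSM father. Its frequencies were 0.284 and 0.244, then 0.294 and 0.312, with a mean of 0.284 ± 0.0287 and log2 odds of −1.34 (SE 0.07, adjusted p = 0.0048). Every mouse used the MSM allele more, but the adjusted p was 0.054 and 0.052 without replicate 1 or 2 of B6 mother x MSM father.

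Cyp2c40, at 39767071 to 39812814 on the minus strand, is known for making a hydroxyeicosatetraenoic acid from arachidonic acid. Its FPKM was 1124 and 729.4 in replicates 1 and 2 of MSM mother x B6 father, and 1069 and 769.3 in those of B6 mother x MSM father. The frequencies of 0.536, 0.481, 0.514 and 0.475 lay on both sides of 0.5, with a mean of 0.501 ± 0.0291 and log2 odds of 0.01 (SE 0.09, adjusted p = 0.95). Of all its windows 68.0% also occurred in another Cyp2c transcript with at most 2 mismatches, and 29.1% were identical to one there.

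Cyp2c67, at 39608842 to 39649051 on the minus strand, had 524.7 and 343.4 FPKM in MSM mother x B6 father and 490.0 and 355.2 in B6 mother x MSM father. It was the only member whose frequencies lay on opposite sides of 0.5 in the crosses, at 0.583 and 0.584 where the mother was MSM, against 0.469 and 0.493 where it was B6. The mean was 0.532 ± 0.0601 and the log2 odds were 0.19 (SE 0.05, adjusted p = 0.063).

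Upstream stretches of this subfamily are shown to give its degree of repetition and because its genes varied together between mice (below). They are 250 bases before the RefSeq starts on the minus strand, Cyp2c67 at chr19:39649043-39649292, Cyp2c40 at chr19:39812815-39813064 and Cyp2c69 at chr19:39886770-39887019. The stretches of Cyp2c67 and Cyp2c69 overlap the GENCODE extents of these genes, which end at 39649051 and 39886799. Capitals mark the longest run common to the 3, of 29 bases.
Cyp2c67: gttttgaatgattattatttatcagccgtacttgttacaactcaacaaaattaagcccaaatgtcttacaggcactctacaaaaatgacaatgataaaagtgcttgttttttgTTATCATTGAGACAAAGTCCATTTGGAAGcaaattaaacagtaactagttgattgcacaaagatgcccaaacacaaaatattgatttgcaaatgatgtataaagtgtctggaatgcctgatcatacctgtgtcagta
Cyp2c40: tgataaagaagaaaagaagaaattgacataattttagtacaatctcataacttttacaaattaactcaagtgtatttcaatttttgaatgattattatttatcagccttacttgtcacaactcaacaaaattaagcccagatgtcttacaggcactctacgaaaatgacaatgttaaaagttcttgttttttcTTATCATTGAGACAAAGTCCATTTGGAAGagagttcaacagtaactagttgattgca
Cyp2c69: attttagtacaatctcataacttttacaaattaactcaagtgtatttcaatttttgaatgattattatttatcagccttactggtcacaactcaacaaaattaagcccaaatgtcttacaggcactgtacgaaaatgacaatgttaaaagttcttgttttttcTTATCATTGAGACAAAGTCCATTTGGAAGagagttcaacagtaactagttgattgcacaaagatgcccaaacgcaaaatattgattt
The run begins 137, 57 and 87 bases before the annotated starts of Cyp2c67, Cyp2c40 and Cyp2c69, so these starts lie at different places in otherwise alike sequence. Cyp2c40 and Cyp2c69 were 98.6% identical over 220 aligned bases, and Cyp2c67 was 93.5% identical to each.

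Cyp2c70, at 40153353 to 40187333 on the minus strand, makes muricholic acids, bile acids typical of mice. It had 586.6 and 448.2 FPKM in replicates 1 and 2 of MSM mother x B6 father, and 550.9 and 693.1 in those of B6 mother x MSM father. Its frequencies were 0.655 and 0.659, then 0.658 and 0.628, all above 0.5 (mean 0.650 ± 0.0151). The log2 odds were 0.89 (SE 0.06, adjusted p = 0.0052). Without replicate 1 of B6 mother x MSM father the adjusted p was 0.051.

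In order of frequency the genes ran Cyp2c38, Cyp2c50, Cyp2c70, Cyp2c37, Cyp2c67, Cyp2c40, Cyp2c29, Cyp2c54, Cyp2c69 and Cyp2c39. Ranges over the mice overlapped between Cyp2c37 and Cyp2c67, between Cyp2c67 and Cyp2c40, and between Cyp2c29 and Cyp2c54, and did not overlap between other neighbours in this order. Along the chromosome, 8 of 9 pairs of successive members differed the same way in all 4 mice, the exception being Cyp2c67 and Cyp2c40 (0.031 ± 0.062, higher for Cyp2c67 in 3 of 4 mice), between which the non-member Cyp2c68 lies. In chromosomal order the 7 called genes leaned to MSM (Cyp2c29), B6 (Cyp2c38), MSM (Cyp2c39, Cyp2c69 and Cyp2c54) and B6 (Cyp2c50 and Cyp2c70), with the non-member Cyp2c68, called toward B6, between Cyp2c39 and Cyp2c69. The median SD of the frequency within a cross was 0.0136 over the members and 0.0253 over all genes.

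Multiplying each FPKM by its frequency, or by 1 minus it, assigns the expression to the alleles. Summed over the 10 genes, the B6 alleles gave 2854 ± 289 FPKM and the MSM alleles 3227 ± 332 (SD, n = 4). The B6 share of the sum was 0.468 and 0.474 in replicates 1 and 2 of MSM mother x B6 father, and 0.455 and 0.480 in those of B6 mother x MSM father. All 4 shares were below 0.5 and within 0.05 of it. Without Cyp2c40, Cyp2c67 and Cyp2c69, whose values are uncertain, the shares of the other 7 members lay on both sides of 0.5. They were 0.481, 0.5079, 0.4915 and 0.5094 in the same order of mice. The makeup of the sum differed between the alleles. Cyp2c50 made up 16.0% ± 1.9 of the members' FPKM on the B6 allele and 3.45% ± 0.36 on the MSM allele, and Cyp2c70 made up 12.9% ± 1.0 and 6.19% ± 1.1. Cyp2c69 made up 9.19% ± 2.5 on the B6 allele and 20.3% ± 3.9 on the MSM allele, and Cyp2c54 made up 6.59% ± 0.96 and 10.5% ± 1.2. Cyp2c29 had the largest mean part on both, with 20.5% ± 4.5 and 27.6% ± 3.8, and was the largest in 2 of 4 mice on the B6 allele and in 3 of 4 on the MSM allele. By subfamily the B6 share was 0.368 ± 0.039 for Cyp2c29, Cyp2c38 and Cyp2c39, 0.420 ± 0.019 for Cyp2c40, Cyp2c67 and Cyp2c69, and 0.576 ± 0.015 for Cyp2c37, Cyp2c50 and Cyp2c54.

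**Figure D4:**
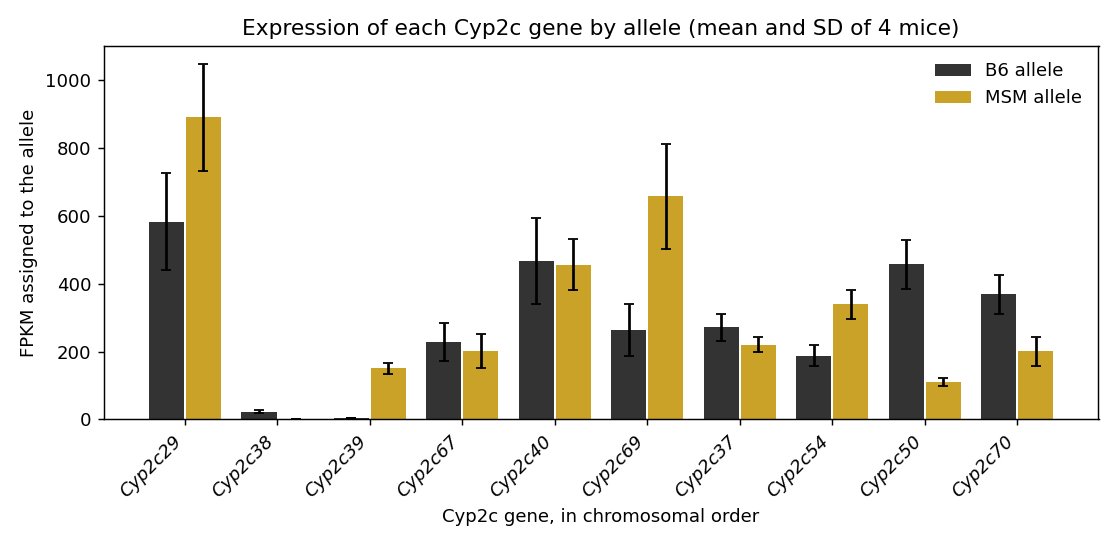
FPKM assigned to the B6 and the MSM allele of each gene in chromosomal order (bars, mean of 4 mice, error bars are the SD). The MSM bar is the taller for Cyp2c29, Cyp2c39, Cyp2c69 and Cyp2c54, and the B6 bar for Cyp2c38, Cyp2c50 and Cyp2c70.

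The reciprocal crosses separate an effect of the strain of an allele from one of the parent that gave it. None of the 10 genes was called for expression between the crosses by limma on log2(FPKM + 1), and none had an unadjusted p under 0.05. Of all 8797 genes 0.0455% were called, all 4 of them listed at 0 in both MSM mother x B6 father mice. The members' log2 differences, MSM mother minus B6 mother, ran from −0.27 (SE 0.22, adjusted p = 0.70) for Cyp2c70 to 0.19 (SE 0.20, adjusted p = 0.76) for Cyp2c54. For none of the 10 did the FPKM ranges of the crosses fail to overlap, against 42.4% of all genes. With 2 mice a cross, an exact permutation test of 1 gene cannot go below p = 0.333. The limma p-values rest on the spread between these mice, with each gene's variance drawn toward that of the other genes.

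Allele frequency between the crosses was likewise not called for any member, against 0.0826% of 3632 genes. Frequencies of the crosses did not overlap for Cyp2c67, Cyp2c54 and Cyp2c69, which is 3 of 10 members, against 34.3% of all genes. Cyp2c67 had the largest difference of the members, 0.103 in frequency and 0.60 in log2 odds (SE 0.10, adjusted p = 0.80, unadjusted p = 0.0064). The other 9 had an unadjusted p above 0.05. Cyp2c54 differed by 0.0247 in frequency (log2 odds 0.16, SE 0.08, adjusted p = 0.87) and Cyp2c69 by −0.0390 (log2 odds −0.28, SE 0.15, adjusted p = 0.87). For Cyp2c38 and Cyp2c39 the means of the crosses were 0.997 and 0.997, and 0.0282 and 0.0280. The direction of use of each called gene was thus the same with either mother.

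Mice of a cross differed from each other, and the members did not all follow the same pattern. Cyp2c40, Cyp2c67 and Cyp2c69 were higher in replicate 1 than in replicate 2 of each cross, by 1.51 to 1.54 times in MSM mother x B6 father and 1.38 to 1.52 times in B6 mother x MSM father. Their part of the members' FPKM was 40.4% and 33.6% in the mice of the first cross, numbered as above, against 45.3% and 29.8% in those of the second. The other 7 genes were lower in replicate 1 than in replicate 2 of B6 mother x MSM father, at 0.66 to 0.84 times. In MSM mother x B6 father 6 of these 7 were higher in replicate 1, by 1.14 to 1.31 times, and Cyp2c37 was lower, at 0.86 times. The non-members Cyp2c68 and Cyp2c44 (below) were also higher in replicate 1 of each cross. The ratios, in MSM mother x B6 father and then the reciprocal cross, were 1.373 and 1.145 for Cyp2c68, and 1.206 and 1.15 for Cyp2c44. Of the windows of Cyp2c40, Cyp2c67 and Cyp2c69, 45.9% to 68.0% occur in another Cyp2c transcript, and the part of misplaced reads was not tested. This pattern was seen in the values and has no test. What mice with the same replicate number share is not stated.

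**Figure D5:**
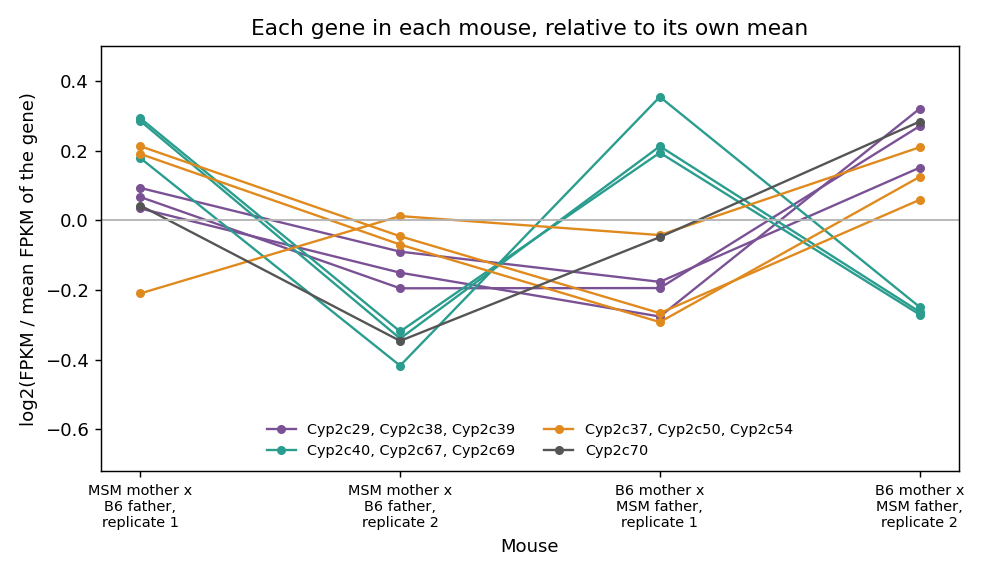
log2 of FPKM over the gene's own mean in each mouse, with lines joining the values of a gene and colours for the subfamilies. Cyp2c40, Cyp2c67 and Cyp2c69 lie above 0 in replicate 1 and below 0 in replicate 2 of each cross, while the other 7 genes are higher in replicate 2 than in replicate 1 of B6 mother x MSM father.

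One marker list of other cells was high in the mice that were high in Cyp2c40, Cyp2c67 and Cyp2c69. Of 4 erythroid markers 3 were listed, and their summed FPKM was 133.1 and 45.2 in replicates 1 and 2 of MSM mother x B6 father and 159.1 and 51.4 in those of the reciprocal cross. The globin gene Hba-a1 had 124.3, 36.0, 136.1 and 23.6 FPKM in the same order, and was high in the same mice. Hbb-bs, the other listed globin, had 2.13, 3.02, 14.3 and 23.1 FPKM and did not follow those mice. The part of red blood cells in these values was not tested. By distance of centred log2(FPKM + 1) over the 4 mice, the 3 genes outside the Cyp2 family most like the members' median profile were Rpl17 (0.086), Gch1 (0.089) and Eif3h (0.090), of 1466 genes whose mean FPKM reached 50. Those most like Cyp2c40, Cyp2c67 and Cyp2c69, a set chosen after their values were seen, were Clpx (0.118), Sepw1 (0.140) and Ddc (0.157).

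Of the 2 other listed genes of the family, Cyp2c68 lies within the cluster, at 39688834 to 39741054. It had a mean of 296.3 ± 50.9 FPKM and a frequency of 0.762 ± 0.0435, with log2 odds of 1.69 (adjusted p = 0.011). Of its windows 53.8% occurred in another Cyp2c transcript with at most 2 mismatches, and 8.8% were identical to one there. Cyp2c44, now named Cyp2c23, lies outside the cluster at 44005022 to 44029208, with 252.7 ± 37.2 FPKM, a frequency of 0.365 ± 0.0321 and log2 odds of −0.80 (adjusted p = 0.0083). The median distance of the pair from 0.5 was 0.198.

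Around the cluster, 24 genes within 2 Mb of its ends were listed and all had a frequency. Of these 20 lay between 0.4 and 0.6, and the median distance from 0.5 was 0.0339, close to that of all genes and below the 0.147 of the members. The test called 2 of the 24 toward B6 and 4 toward MSM, against 22.6% and 13.6% of all 3632 genes. Rbp4, the plasma carrier of retinol and the neighbour of highest level, had 2545 ± 398.9 FPKM and a frequency of 0.531 ± 0.0167 (adjusted p = 0.057). Cyp26a1, which degrades retinoic acid, had a frequency of 0.474 ± 0.0139 (adjusted p = 0.10). The lowest frequencies were 0.083 for Dntt, a gene of only 3.85 FPKM, and 0.203 for Hhex, a homeobox factor of liver development. The highest was 0.614 for Avpi1.

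Genes that act with the Cyp2c enzymes were counted from lists. Of 26 partners and eicosanoid enzymes 17 were listed and 6 had a frequency, and 5 of those lay between 0.4 and 0.6, a share of 83.3% against 79.0% of all genes. None of these 6 was called toward B6, against 22.6% of all 3632 genes. Acsl4, an X-linked gene whose enzyme activates arachidonic acid, was called toward MSM (0.350 ± 0.113, adjusted p = 0.050, just under the threshold), as were 13.6% of all genes. In females, allele use on the X chromosome also depends on X inactivation, whose part was not tested. Por had 470.5 ± 103.9 FPKM and a frequency of 0.516 ± 0.0045 (adjusted p = 0.18), and Ephx1, the microsomal epoxide hydrolase, 244.1 ± 31.4 FPKM and 0.490 ± 0.0043 (adjusted p = 0.36). None of the 17 was called between the crosses in expression, and 4 had an unadjusted p under 0.05, which 780 of all 8797 genes (8.87%) had.

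Of 21 regulators of Cyp2c transcription all were listed and 10 had a frequency. The test called 3 of the 10 toward B6 and none toward MSM, against 22.6% and 13.6% of all 3632 genes. Those 3 were Cebpb (0.808 ± 0.0287), Stat5a (0.596 ± 0.0456) and Hnf4a (0.542 ± 0.0092), the last a nuclear receptor that maintains hepatocyte gene expression. Expression of the 21 was not called between the crosses, with 5 of the 21 at an unadjusted p under 0.05, against 8.87% of all genes. The receptor gene Nr1i3 (CAR) had 120.4 ± 14.3 FPKM. Of 25 CAR and PXR targets outside the family 24 were listed and 13 had a frequency. Of these 13, 5 were called toward B6 and 2 toward MSM, against the same 22.6% and 13.6% of all genes. The 2 toward MSM were the Cyp3a genes Cyp3a11 (0.216 ± 0.0402) and Cyp3a41a (0.0648 ± 0.0167). Of those 13 genes 46.2% lay between 0.4 and 0.6, and their median distance from 0.5 was 0.177, above the 0.147 of the Cyp2c members. None of the 24 was called in expression, and 7 had an unadjusted p under 0.05, against 8.87% of all genes.

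Of 21 other listed Cyp2 genes 6 had a frequency, and none was called for imbalance. One of them, Cyp2e1, was called between the crosses, being listed at 0 in both MSM mother x B6 father mice and at 4876 and 6541 FPKM in the B6 mother x MSM father mice. Since it had frequencies of 0.516 to 0.546 in all 4 mice, it is described only as listed at 0. Many Cyp2c genes are expressed toward the central vein of the liver lobule, so zonation markers were also listed. Of 13 pericentral genes 8 had a frequency, with 1 called toward each allele, and of 14 periportal genes 10 had one, with 2 called toward each. Over all 3632 genes the shares called were 22.6% toward B6 and 13.6% toward MSM. Besides Cyp2e1 none of the zonation genes was called in expression. Of 13 pericentral genes 5 (Cyp2e1 among them), and of 14 periportal genes 7, had an unadjusted p under 0.05, against 8.87% of all genes.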

How the data were processed

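Liver mRNA of 4 female F1 mice was sequenced with a directional poly(A) kit in 150-bp paired-end mode. As their methods state, the authors used Trim Galore! for trimming, Tophat2 for alignment to an mm10 genome with SNP positions masked (1 alignment reported per read), SNPsplit for separating the alleles and Cuffdiff for counting reads per allele. They gave a frequency where over 10 reads told the alleles apart. Tool versions are not given in the sources used here. The authors deposited FPKM, whose making is not described further, and a fraction, the B6-allele frequency. No read counts were used, so no interval for a single frequency was computed.

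Genes were matched by symbol. Positions and transcripts came from GENCODE M21, and upstream sequences from RefSeq. limma 3.58.1 in R 4.3.3 was fitted to expression over all genes whose mean FPKM reached 1, with a variance trend. The scale was log2(FPKM + 1), which understates fold changes of low genes. For allele use it was fitted to log2 odds of frequencies limited to 0.01 to 0.99, over the 3632 genes with a frequency in every mouse. That fit had no variance trend and no FPKM filter. The intercept tested equal allele use, the cross term the crosses. All were two-sided, and p-values were adjusted by the Benjamini-Hochberg method over all genes. Scripts (Python 3.11.15, pandas 2.3.3) were tested on simulated data.

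The members and lists were chosen with earlier results of these data known. All 10 members are named. Of other lists, genes called or among the 4 with the largest mean FPKM could be named, with Hba-a1, Hbb-bs, Dntt, Hhex and Avpi1 chosen after their values were seen. Other limits, pseudocounts, filters, scalings, leaving out each mouse and a replicate block were tried.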

Additional observations from a re-analysis of the deposited data

Results flagged for a closer look

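Cyp2c67 was the single member whose alleles were used in opposite directions in the crosses, since both MSM mother x B6 father mice lay above 0.5 in B6-allele frequency and both B6 mother x MSM father mice below it. The difference in frequency, MSM mother minus B6 mother, was 0.1027. By the limma test of the difference itself it was not called (log2 odds 0.60, SE 0.10, adjusted p = 0.80, and 0.65 to 0.97 over the alternatives). Of the windows of its transcript 45.9% occur in another Cyp2c transcript with at most 2 mismatches, and 13.0% are identical to one there. The part of misplaced reads was not tested. Groups of 2 mice are too small for a check of single mice that lie far from the others.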

How the results depend on the processing

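None of the 10 members was called in expression or in allele frequency between the crosses under any of the 10 alternatives to each test. For allelic imbalance, 90 of 100 values kept their side of the threshold. Among these, the log2 odds of Cyp2c40, which was not called, changed sign. They were 0.008 in the main fit and −0.048 with log2 odds shifted to a median of 0 in each mouse. Without replicate 1 of MSM mother x B6 father they were −0.072, and without replicate 1 of B6 mother x MSM father −0.049. In 9 values the call was lost when a mouse was left out, as given beside Cyp2c29, Cyp2c54, Cyp2c69 and Cyp2c70. Cyp2c67 gained the call (adjusted p = 0.042) with only genes of a mean FPKM of at least 10. No direction of a call was reversed. Leaving out a mouse gave 1 to 3 members called toward MSM, with 1 without replicate 1 or 2 of B6 mother x MSM father, and 2 to 3 toward B6. It gave 181 to 514 imbalanced genes in all (108 to 315 toward B6, 73 to 199 toward MSM) in place of 1316 (822 and 494), 13 to 21 genes called in expression in place of 4, and 0 to 6 called in frequency between the crosses in place of 3. The cause of these changes, of which some were rises and some falls, was not tested. With each cross weighted equally, members at or above 0.8 numbered 1 to 2 (Cyp2c50 is lost without replicate 2 of B6 mother x MSM father, which leaves replicate 1 as the value of its cross), and 6 to 8 of the 10 ranks of FPKM were kept.

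With a mean FPKM of at least 10, 850 genes were imbalanced (521 toward B6, 329 toward MSM), 1 differed in frequency between the crosses and 57 passed the authors' limits (37 B6, 20 MSM) in place of 116 (67 and 49), with fewer genes tested. Frequencies limited at 0.001 gave 1 gene called between the crosses. Limits of 0.9 and 0.1 gave 60 genes (30 and 30) and 1 member at the upper limit, and 0.7 and 0.3 gave 241 (138 and 103), with Cyp2c69 as a second member, of 2 in all, at the lower. With every mouse past the limit, 44 genes were B6-biased, 1 of them a member.

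Neither labels nor methods say what equal replicate numbers share, and with 2 per cross the deviations of same-numbered mice correlated at r = 0.004 over 8797 genes in log2(FPKM + 1) and 0.146 over 3632 genes in log2 odds. With a replicate block 285 genes were called in expression and 775 for imbalance (481 toward B6, 294 toward MSM). The block changed no call of a member. The unknown depth limits every single frequency.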
